A study of Homo sapiens with 21 samples.

Results

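The genes described here are 35 human genes of the endoplasmic reticulum (ER) stress response and of the ATF4 response, chosen by gene symbol from the 60651 genes counted in 21 tumors grown from A549-Luc2 cells. A549-Luc2 is a luciferase-marked line of the A549 human lung adenocarcinoma cell. The cells were injected under the skin of female athymic nu/nu mice of 6 to 8 weeks of age, which lack mature T cells, and mice were assigned at random to 3 groups of 10 when tumors averaged 80 to 100 mm3. Oxy186 and Oxy210 are small molecules tested as tumor inhibitors. The Control group received daily the formulation without compound (DMSO, ethanol, PEG400 and corn oil), the Oxy186 group received Oxy186 at 50 mg/kg and the Oxy210 group received Oxy210 at 50 mg/kg, all by oral gavage. RNA was sequenced from 7 tumors of each group, named r1 to r7. The labels number the tumors of a group but name no mouse, so p-values measure the spread between these samples.

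The ER is where secreted and membrane proteins fold, and unfolded protein in its lumen activates sensors in its membrane. ATF6 moves to the Golgi, is cut there and becomes a transcription factor; IRE1 (gene ERN1) splices the XBP1 message so that active XBP1 protein is made; together they raise chaperones and the ER-associated degradation (ERAD) machinery. PERK (gene EIF2AK3) phosphorylates the initiation factor eIF2, which lowers general translation but favours translation of ATF4, and ATF4 in turn raises genes of amino acid supply and of cell death control. ATF4 also responds to amino acid shortage through another eIF2 kinase, so its targets do not report ER stress alone. The measurements below are message levels, and ATF6 cutting, XBP1 splicing and ATF4 translation were not measured by these counts.

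By these branches, 20 members were placed in the ATF6-IRE1 arm (the sensors ATF6 and ERN1, the factor XBP1, 13 ER folding genes and 4 ERAD genes) and 15 in the PERK-ATF4 arm (EIF2AK3, ATF4, DDIT3 and 12 ATF4 response genes). The assignment is textbook knowledge and used no value. All 35 members passed the filter on low counts in each comparison, and all had counts in every tumor, the lowest being 6.

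Promoter sequences were read for the members from the RefSeq table (GRCh38.p14; 250 bases before to 50 after each start), where 32 of the 35 matched; PDIA3, PSPH and SHMT2 had none in the table. The ER stress element (ERSE: CCAAT, then 9 bases of any kind, then CCACG, on both strands) is the known binding site of ATF6 and XBP1. It was present in 7 of 32 members (XBP1, HSPA5, HSP90B1, PDIA6, CALR, CANX and CRELD2), and 0.0769% of all 35116 promoters of that length held it. The 7 belonged to the 19 members of the ATF6-IRE1 arm with a promoter, against 0 of 13 in the PERK-ATF4 arm. The related ERSE-II (ATTGG, then 1 base of any kind, then CCACG) was found in HYOU1, SDF2L1 and HERPUD1, and in 0.0541% of all promoters. The element TGACGTGG, known as UPRE, was found in HYOU1 alone of the members, where it overlaps an ERSE-II, and in 0.729% of all promoters.

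The amino acid response motif TGATGNAAN (CARE), to which ATF4 with a C/EBP partner binds, was found in CHAC1, ASNS, SLC3A2 and HERPUD1, and in 3.61% of all promoters. Its narrower form TTGCATCA, which overlaps the wider one wherever it occurs in these genes, was found in CHAC1 and HERPUD1 and in 0.866% of all promoters. A match is a match of letters and not evidence of binding. The sequences of 7 members that recur below are shown from 5′ to 3′ on the strand of the gene with the matches in capitals, since they show which arm's motif each gene carries. The first 3 carry an ERSE, SDF2L1 carries an ERSE-II, HERPUD1 carries both a TTGCATCA and an ERSE-II, and CHAC1 and ASNS carry a CARE. The ERSE of CRELD2, the ERSE-II of SDF2L1 and the CARE of CHAC1 lie on the opposite strand, so their letters appear reversed and complemented. In HERPUD1 the capitals mark the narrower TTGCATCA, and its CARE match also takes in the base before it.
XBP1 promoter, chr22:28800577-28800636, minus strand: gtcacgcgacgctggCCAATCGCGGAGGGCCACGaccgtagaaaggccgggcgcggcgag
HSPA5 promoter, chr9:125241365-125241424, minus strand: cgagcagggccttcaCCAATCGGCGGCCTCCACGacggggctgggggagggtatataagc
CRELD2 promoter, chr22:49918539-49918598, plus strand: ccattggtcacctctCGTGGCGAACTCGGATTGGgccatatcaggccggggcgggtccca
SDF2L1 promoter, chr22:21642099-21642158, plus strand: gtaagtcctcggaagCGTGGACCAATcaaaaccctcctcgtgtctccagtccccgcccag
HERPUD1 promoter, chr16:56931951-56932050, plus strand: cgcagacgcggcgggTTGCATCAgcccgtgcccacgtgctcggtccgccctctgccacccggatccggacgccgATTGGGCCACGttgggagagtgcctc
CHAC1 promoter, chr15:40953246-40953305, plus strand: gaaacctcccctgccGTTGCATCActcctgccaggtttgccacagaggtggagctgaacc
ASNS promoter, chr7:97872432-97872491, minus strand: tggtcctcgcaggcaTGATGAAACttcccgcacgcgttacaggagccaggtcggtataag

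Each library held 13787493 to 17865119 counts on human genes. All 8 markers of the A549 epithelium had a median above 1 CPM (counts scaled to the size of each library), and summed to 10770 to 18100 CPM in Control, 10030 to 18870 in Oxy186 and 8527 to 16280 in Oxy210. Of 11 markers of human stroma, endothelium and leukocytes, 5 had a median above 1 CPM, and the list summed to 127 to 237, 116 to 273 and 85.4 to 162 CPM. Of 4 plasma cell markers, taken because that cell has a high secretory load, TNFRSF17 was at 0 in all 21 tumors, and the list summed to 150 to 266, 109 to 306 and 103 to 220 CPM, mostly from SDC1, which epithelium also expresses. The human cells injected were A549-Luc2 cells and only human alignments were kept, so these lists are not a measure of host cells. The source of the counts on the markers of other cells, and their part in the member values, were not tested. Libraries also differed in how the level of a gene depended on the GC content of its exons. This GC slope (log2 change per 10 percentage points of GC, relative to the mean of all libraries) was -0.15 to 0.40 in Control, -0.33 to 0.26 in Oxy210, -0.51 to -0.18 in Oxy186 r1 to r4 and 0.079 to 0.49 in Oxy186 r5 to r7. Fits were therefore also made in which each library's GC trend entered as an offset (GC offsets). In bulk tumor RNA, a lower level cannot be told apart from fewer cells that express the gene.

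Levels differed widely among members. Per kilobase of exon, the highest mean levels were those of SLC7A5 (166 CPM per kb), the light chain of an amino acid exchanger, CALR (142), a lectin chaperone, ATF4 (119), XBP1 (115) and HSP90B1 (99.4), the ER form of HSP90. At the low end were ASNS (0.53), asparagine synthetase, and CHAC1 (0.96), a glutathione-degrading enzyme. The median over all genes with a length was 3.56 CPM per kb, and 29 members lay above it. By this measure the sensors ERN1 (2.13 CPM per kb) and ATF6 (4.66) were the lowest members of the ATF6-IRE1 arm. In the PERK-ATF4 arm EIF2AK3 (1.42) lay above CHAC1 and ASNS and below the rest, with PHGDH close to it (1.43). The order depends on the exon length divided by, which was 14263 bases for ATF6, 19153 for ERN1 and 20691 for EIF2AK3. Without that division ATF6 was not below all others of its arm, with a mean log2 CPM of 6.035 against 4.665 for SDF2L1.

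**Figure D1:**
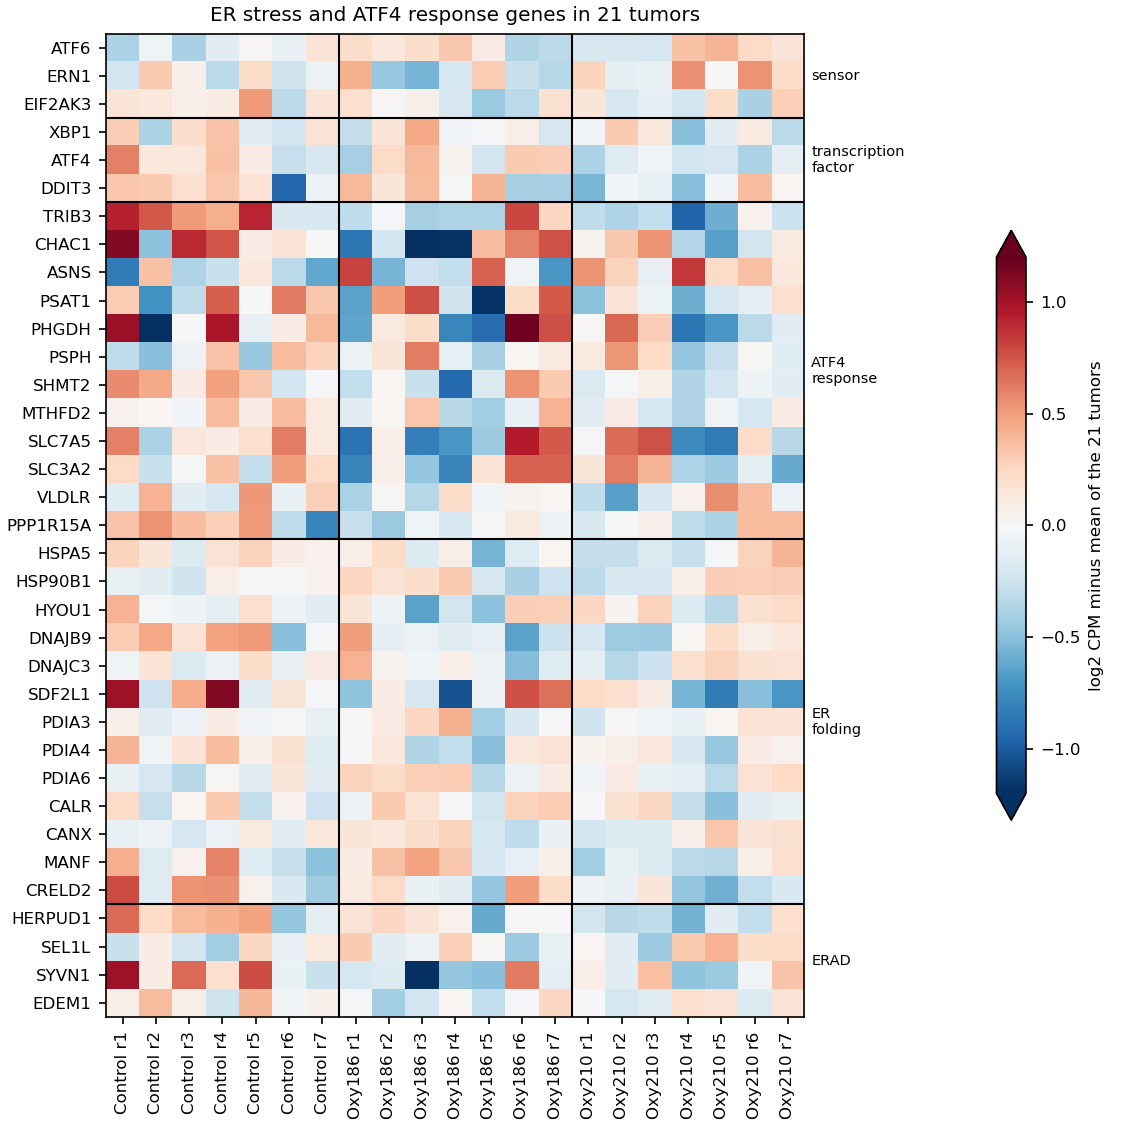
Levels of the 35 members (rows, by role) in the 21 tumors (columns, by group), as log2 CPM minus the mean of the gene over all tumors; colors stop at 1.2 in either direction, which 3 of 735 values exceed. The ATF4 response rows are the most uneven, Control r1 is the highest tumor for 9 members, and Oxy186 r5 is the lowest for 8.

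Across the 21 tumors the ATF4 response genes varied most. The largest standard deviations of log2 CPM were those of CHAC1 (0.72), PHGDH (0.70), the first enzyme of serine synthesis, SLC7A5 (0.59), SDF2L1 (0.58), a component of ER chaperone complexes, and PSAT1 (0.53), the next enzyme of serine synthesis. The smallest were those of the disulfide isomerases PDIA3 (0.18) and PDIA6 (0.21), the chaperone CANX (0.18), EDEM1 (0.22), which sends misfolded glycoproteins to ERAD, and the co-chaperone DNAJC3 (0.22). The median was 0.37 in the PERK-ATF4 arm and 0.26 in the ATF6-IRE1 arm, beside 0.37 over all 16990 genes and 0.27 over the 6090 genes whose log2 CPM averaged 5 or more. Some of this followed the GC slope: after removal of the GC trend the SD of CHAC1, whose level had a Pearson r of 0.90 with the GC slope, was 0.33, while those of PHGDH and PSAT1 were 0.63 and 0.55. Extremes gathered in a few tumors, with Control r1 highest for 9 members, among them TRIB3, ATF4 and HERPUD1, and Oxy186 r5 lowest for 8, among them HSPA5 and PSAT1. Control r1 had the highest GC slope of its group (0.40), and the exon GC of these 3 members was 59.65%, 57.52% and 42.49%. The other members highest in Control r1 were all GC-rich: CHAC1 (62.7%), CRELD2 (57.68%), SYVN1 (57.65%), SHMT2 (56.79%), HYOU1 (55.78%) and PDIA4 (53.34%). The part of the GC slope in these extremes was not tested. How often these tumors were extreme over all genes was not counted.

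The first question was whether Oxy210 at this dose altered these genes. No member was called (edgeR's quasi-likelihood test, Benjamini-Hochberg adjusted p at or under 0.05), and 0% of all 16396 genes tested were (0 of 16396), while DESeq2 called 92 genes, of which 1 was a member. At an unadjusted p under 0.05, 8 members were lower and 1 was higher in Oxy210 than in Control, beside 8.56% lower and 5.48% higher of all genes. That is 25.7% of the members against 14% of all genes, so the share of members is above the background by a modest margin and comes from the lower side. The median log2 fold change over members was -0.13, against 0.0051 over all genes, and 24 of 35 were below 0. With GC offsets 7 members were lower (TRIB3, HERPUD1, MTHFD2, DNAJB9, CRELD2, SDF2L1 and PSAT1) and 1 higher (ASNS), where 7.56% and 6.83% of all genes were. The 15 members with at least 50% exon GC had a median of -0.34 (all genes of that GC content -0.15) and the 20 with less had -0.023 (all genes 0.086), and with GC offsets these members stood at -0.16 and -0.11.

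TRIB3, a pseudokinase induced by ATF4 and CHOP that restrains both, showed the largest difference. It ranged from 36.1 to 78.2 CPM in Control (median 58.7), from 31.3 to 71.9 in Oxy186 (median 33.3) and from 21.1 to 42.7 in Oxy210 (median 33.4). All 7 Oxy210 tumors lay below the Control median and 6 lay below the lowest Control tumor, and the ranges overlap because Oxy210 r6 lay above Control r6 and r7. Its log2 fold change, Oxy210 against Control, was -0.86 (SE 0.18, 95% interval -1.24 to -0.48), with an edgeR unadjusted p of 0.000146 and adjusted p of 0.196. That adjusted p was also the smallest over all genes. It is a tied value that this adjustment gives to several genes, so it does not rank TRIB3 first. With GC offsets the log2 fold change was -0.64, with an adjusted p of 0.152. TRIB3 passed the threshold under DESeq2 (adjusted p 0.0109) and without the filter on low counts (0.0478).

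ATF4 itself, the transcription factor of this arm, ranged from 252 to 464 CPM in Control (median 333), from 231 to 401 in Oxy186 (median 358) and from 235 to 296 in Oxy210 (median 266). The Oxy210 tumors were tightly grouped, all 7 below the Control median, and 5 Control tumors lay above all of them. The log2 fold change was -0.34 (SE 0.12, edgeR adjusted p 0.276), and -0.16 with GC offsets, where p was 0.158. DDIT3, which encodes the death-promoting factor CHOP, ranged from 6.65 to 16.3 CPM in Control (median 14.8), from 9.74 to 17.2 in Oxy186 (median 14.3) and from 8.81 to 16.7 in Oxy210 (median 12.6). Its groups overlapped almost wholly, with a log2 fold change of -0.16 (SE 0.18, edgeR adjusted p 0.678). Exons of DDIT3 overlap those of MARS1 and MBD6 on the other strand over 31.6% of their length, and whether reads were counted by strand is not given in the sources used here.

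Among the other ATF4 response genes, the mitochondrial one-carbon enzymes were lower in Oxy210 at an unadjusted p under 0.05. SHMT2, which makes glycine from serine, ranged from 99.2 to 172 CPM in Control (median 145), from 60.5 to 168 in Oxy186 (median 103) and from 90.6 to 123 in Oxy210 (median 106). All 7 Oxy210 tumors were below the Control median, and the log2 fold change was -0.37 (SE 0.12, edgeR adjusted p 0.261). With GC offsets it was -0.22, where the unadjusted p was 0.0502, and the level of SHMT2 had a Pearson r of 0.78 with the GC slope. MTHFD2, the dehydrogenase of the same pathway, ranged from 72.4 to 95.9 CPM in Control (median 78.8), from 55.3 to 99.2 in Oxy186 (median 69.2) and from 57.6 to 79.2 in Oxy210 (median 67.5), where 5 tumors lay below the lowest Control tumor. It had a log2 fold change of -0.23 (SE 0.10, edgeR adjusted p 0.33). Exons of MTHFD2 and SHMT2 overlap genes on the other strand over 14.1% and 8.38% of their length. Values for CHAC1 (-0.45, SE 0.26; -0.18 with GC offsets), PHGDH (-0.36, SE 0.29) and PSAT1 (-0.32, SE 0.19; -0.40 with GC offsets, where the unadjusted p was 0.0475) pointed the same way with wide errors, and those for SLC7A5 (-0.14), SLC3A2 (-0.11), the heavy chain of the same exchanger, VLDLR (-0.083), a lipoprotein receptor, PPP1R15A (-0.16), which restores eIF2, and PSPH (0.050), the last enzyme of serine synthesis, were small.

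ASNS was the exception, being higher in Oxy210. It ranged from 1.31 to 3.18 CPM in Control (median 1.95), from 1.47 to 4.41 in Oxy186 (median 2.06) and from 2.29 to 4.55 in Oxy210 (median 2.98). All 7 Oxy210 tumors were above the Control median, and the log2 fold change was 0.62 (SE 0.22, edgeR adjusted p 0.281). These values rest on 18 to 73 counts per tumor and do not measure most of the ASNS message. In GENCODE 44, 96.1% of its coding bases and 49.3% of its exon bases (gene at chr7:97851677-97872542, minus strand, GRCh38) lie also in exons of AC079781.5 on the same strand, where a read cannot be given to either gene alone. AC079781.5 itself had 29 to 160 counts per tumor and a log2 fold change of -0.0089 (SE 0.17, edgeR adjusted p 0.985).

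**Figure D2:**
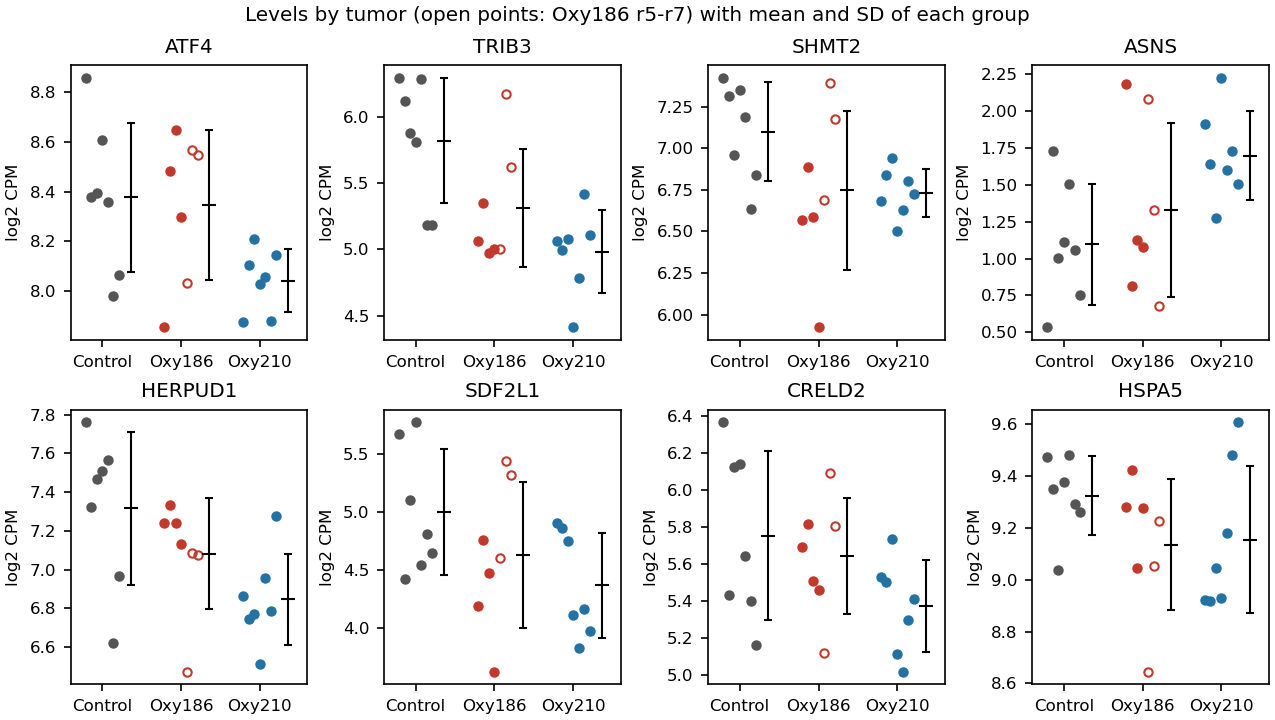
Levels (log2 CPM) of 8 members in each tumor, with the mean and SD of each group of 7 as a black bar; open points are Oxy186 r5 to r7. In TRIB3, ATF4, SHMT2 and HERPUD1 all 7 Oxy210 tumors lie below the Control median, in ASNS all 7 lie above it, and HSPA5 has overlapping groups throughout.

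In the ATF6-IRE1 arm 4 of 20 members were lower in Oxy210 at an unadjusted p under 0.05 and 0 were higher, beside 8.56% lower and 5.48% higher of all genes, with a median of -0.062. HERPUD1, which recruits the ERAD ubiquitin ligase, ranged from 98.1 to 217 CPM in Control (median 177), from 88.7 to 161 in Oxy186 (median 140) and from 91.2 to 155 in Oxy210 (median 110). All 7 Oxy210 tumors were below the Control median, and 5 Control tumors were above all of them. The log2 fold change was -0.47 (SE 0.15, edgeR adjusted p 0.263), and -0.58 with GC offsets. SYVN1, that ligase, ranged from 51.7 to 126 CPM in Control (median 71.6) and from 44.5 to 79.7 in Oxy210 (median 60.6), with a log2 fold change of -0.41 (SE 0.18, edgeR adjusted p 0.336), and -0.24 with GC offsets, where the unadjusted p was 0.111.

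SDF2L1 and CRELD2 were the ER folding genes with the lowest values. SDF2L1 ranged from 21.3 to 54.8 CPM in Control (median 27.9), from 12.2 to 43.3 in Oxy186 (median 24.1) and from 14 to 29.8 in Oxy210 (median 17.8). Here 4 Oxy210 tumors lay below the lowest Control tumor, and the log2 fold change was -0.65 (SE 0.22, edgeR adjusted p 0.273). CRELD2, a secreted ER stress protein with isomerase activity, ranged from 35.7 to 82.5 CPM in Control (median 49.8), from 34.7 to 68.2 in Oxy186 (median 51.6) and from 32.3 to 53.2 in Oxy210 (median 42.4), with a log2 fold change of -0.41 (SE 0.16, edgeR adjusted p 0.31). Both are GC-rich, and with GC offsets their values were -0.36 and -0.23.

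For HSPA5 and XBP1 the intervals included 0. HSPA5 (BiP), the main HSP70 of the ER, ranged from 525 to 714 CPM in Control (median 653), from 400.2 to 687 in Oxy186 (median 598) and from 484 to 781 in Oxy210 (median 528). Its log2 fold change was -0.13 (95% interval -0.40 to 0.14, edgeR adjusted p 0.629), and -0.205 with GC offsets. Of the Oxy210 tumors, 3 lay below all Control tumors and 2 above them for HSPA5. XBP1 ranged from 264 to 435 CPM in Control (median 386), from 280.4 to 473 in Oxy186 (median 337) and from 242 to 426 in Oxy210 (median 334), with a log2 fold change of -0.085 (95% interval -0.37 to 0.20, edgeR adjusted p 0.779). The sensors ERN1 and ATF6 had the highest values after ASNS, 0.26 (SE 0.14, edgeR adjusted p 0.405) and 0.24 (SE 0.14, edgeR adjusted p 0.422; 0.12 with GC offsets). The remaining 13 members of this comparison, among them EIF2AK3 at -0.13, lay between -0.28 for DNAJB9, a co-chaperone of HSPA5, and 0.20 for SEL1L, the partner of SYVN1. DNAJB9 was at -0.45 with GC offsets. For DNAJB9 and PDIA4 (-0.16, SE 0.11, edgeR adjusted p 0.481) all 7 Oxy210 tumors lay below the Control median. For PDIA6 (0.12) 6 lay above it. The median over the ER folding genes was -0.038, and in 32 of the 35 members the 95% interval stayed within a 2-fold change, the others being TRIB3, ASNS and SDF2L1.

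**Figure D3:**
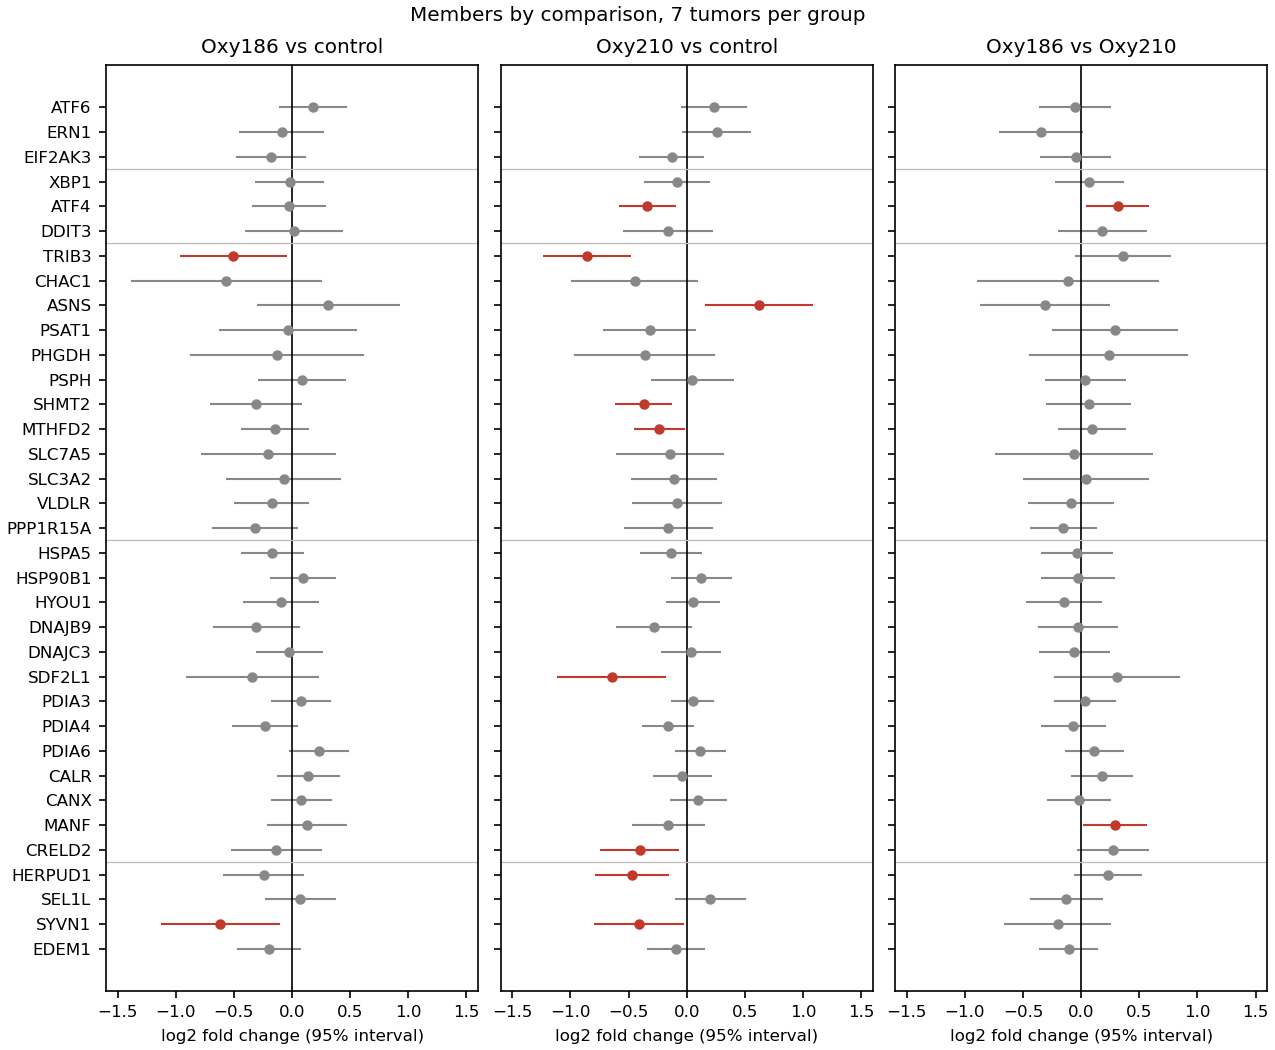
Log2 fold changes of the members in the 3 comparisons, with 95% intervals from edgeR (7 tumors per group; first group minus second); red marks an unadjusted p under 0.05. Most red points are in the middle panel, Oxy210 against Control, and 8 of those 9 are left of 0.

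For Oxy186, all 7 tumors against Control gave no called member and 0% called genes (0 of 16291), and DESeq2 called 0 too. At an unadjusted p under 0.05, 2 members were lower and 0 higher, beside 2.03% lower and 1.85% higher of all genes, so the share of members (5.71%) was close to that of all genes (3.88%). With GC offsets 4 members were lower (SYVN1, DNAJB9, EIF2AK3 and HSPA5) and 1 higher (CALR), beside 2.6% lower and 3.3% higher of all genes. SYVN1 ranged from 26.1 to 95.7 CPM in Oxy186 (median 53.6), with 3 tumors below the lowest Control tumor and a log2 fold change of -0.62 (SE 0.24, edgeR adjusted p 0.836), and -0.40 with GC offsets. TRIB3 had a log2 fold change of -0.50 (SE 0.22, edgeR adjusted p 0.836), and -0.20 with GC offsets, where p was 0.206. Here 4 Oxy186 tumors lay below all Control tumors, and Oxy186 r2, r6 and r7 lay within the Control range.

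The other members named by rank were CHAC1 (-0.57, SE 0.39; -0.24 with GC offsets), which ranged from 0.43 to 3.08 CPM in Oxy186 and from 1.22 to 3.94 in Control, ASNS (0.31, SE 0.29), PDIA6 (0.23, SE 0.12), whose exons overlap ATP6V1C2 on the other strand over 25.2% of their length, and ATF6 (0.18, SE 0.14; 0.068 with GC offsets). The 25 members not named for this comparison lay between -0.34 for SDF2L1 and 0.14 for CALR, which with GC offsets were at 0.20 and 0.32. The factors were near 0, with log2 fold changes of -0.027 for ATF4 (0.26 with GC offsets), -0.021 for XBP1 and 0.016 for DDIT3, and HSPA5 was at -0.17 (95% interval -0.44 to 0.10; with GC offsets -0.26, interval -0.51 to -0.0011). The median over members was -0.098, against 0.016 over all genes. In 33 of 35 members the 95% interval stayed within a 2-fold change, the others being CHAC1 and SYVN1.

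The study carried 4 of its 7 Oxy186 tumors, r1 to r4, into its comparison with Control after looking at a principal component plot of these libraries. That selection used the values tested here, so the counts that follow describe the selected tumors and are not independent evidence of an effect of Oxy186. In r1 to r4 against Control, 6 members were lower and 1 higher at an edgeR adjusted p at or under 0.05, where 15% of all 16852 genes were lower and 4.73% higher. The share of members lower is thus near the background. The 6 were CHAC1 (-1.49, SE 0.40), SYVN1 (-0.89, SE 0.26), TRIB3 (-0.79, SE 0.22), SLC7A5 (-0.77, SE 0.22), SHMT2 (-0.60, SE 0.19) and SLC3A2 (-0.59, SE 0.20), and PDIA6 was higher (0.36, SE 0.11). Of these CHAC1 alone passed the fold threshold of 2 that the study used. In r5 to r7 the mean log2 CPM of CHAC1 was 1.5 and that of SLC7A5 9.94, above the Control means of 1.29 and 9.71, against -0.088 and 8.93 in r1 to r4.

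These differences followed exon GC content. The 15 members with at least 50% GC had a median log2 fold change of -0.53 in r1 to r4 (all genes of that GC content -0.49) and the 20 with less had 0.072 (all genes 0.19). With GC offsets the medians were 0.025 and -0.11, 4.05% of all genes were called, and the only member called was CALR, at 0.49 (SE 0.12, edgeR adjusted p 0.0348). TRIB3 then stood at -0.075, SLC7A5 at 0.025 and CHAC1 at -0.52 (SE 0.30, edgeR adjusted p 0.383). Without GC offsets, leaving out r3 or r4, the tumors with the lowest GC slopes, ended every member's call. Of all genes, 1875 of 17199 were then called without r3 and 1836 of 17157 without r4, against 3323 of 16852 with both. Such a fit also has 1 tumor fewer, and the cause of the lost calls was not tested.

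**Figure D4:**
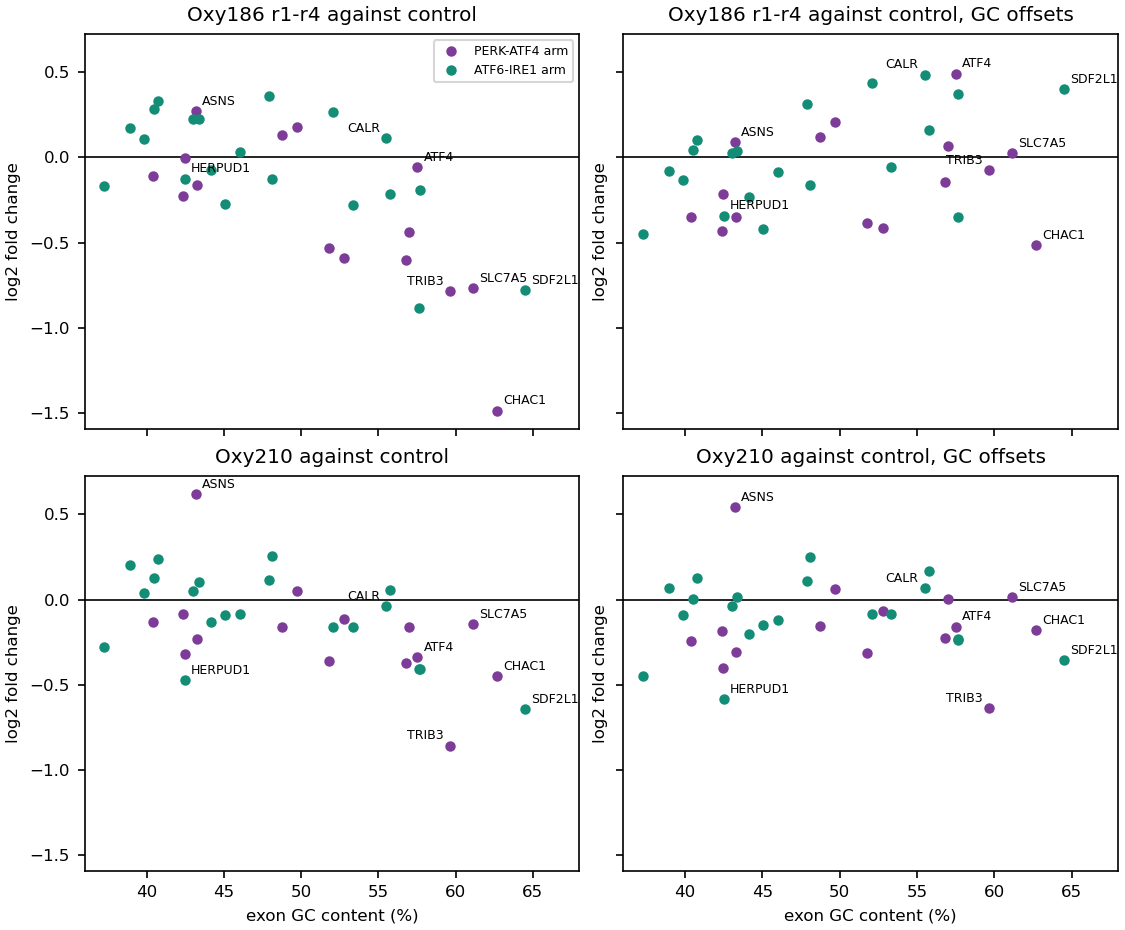
Log2 fold change of each member against the GC content of its exons (percent), for Oxy186 r1 to r4 (top) and Oxy210 (bottom) against Control, before (left) and after (right) GC offsets; purple marks the PERK-ATF4 arm and green the ATF6-IRE1 arm. The top left panel falls with GC content down to CHAC1 at -1.49, the top right does not, and TRIB3 and HERPUD1 are low in both bottom panels.

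Both compounds were given at the same dose, so they can be compared directly, as 1 pair of compounds over all genes. No member was called in Oxy186 against Oxy210, and 0% of all genes were (0 of 16361), while DESeq2 called 3 genes and no member. At an unadjusted p under 0.05, 2 members were higher in Oxy186 and 0 lower, beside 3.14% higher and 0.917% lower of all genes. With GC offsets 5 were higher (SDF2L1, CRELD2, TRIB3, ATF4 and CALR) and 1 lower (ERN1), beside 5.64% higher and 2.48% lower of all genes. ATF4 was higher by a log2 fold change of 0.32 (95% interval 0.045 to 0.58, edgeR adjusted p 1), with 5 Oxy186 tumors above all 7 Oxy210 tumors and 1 below them. MANF, a secreted protein released under ER stress, was at 0.29 (95% interval 0.011 to 0.57, edgeR adjusted p 1), with a median of 67.7 CPM in Oxy186 and 56.6 in Oxy210. With GC offsets the interval of ATF4 was 0.055 to 0.78 and that of MANF was -0.012 to 0.61.

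Without GC offsets the remaining members named in this comparison had intervals that include 0. These were TRIB3 (0.36, interval -0.050 to 0.77), SDF2L1 (0.31, -0.23 to 0.85), DDIT3 (0.18, -0.20 to 0.57), XBP1 (0.068, -0.23 to 0.37), HSPA5 (-0.036, -0.35 to 0.27), SYVN1 (-0.20, -0.66 to 0.26), ASNS (-0.31, -0.87 to 0.25) and ERN1 (-0.34, -0.71 to 0.018). With GC offsets 3 of these intervals left out 0, those of TRIB3 (0.43, 0.11 to 0.75), SDF2L1 (0.55, 0.20 to 0.90) and ERN1 (-0.37, -0.72 to -0.013), and none of the 3 was called (smallest edgeR adjusted p 0.452). Without GC offsets all 35 intervals lay within a 2-fold difference and 26 within a 1.5-fold difference, so these intervals leave out a difference of over 2-fold between the compounds at this dose for each member, and smaller differences are not resolved. The 9 members with wider intervals were ERN1, TRIB3, CHAC1, ASNS, PSAT1, PHGDH, SLC7A5, SDF2L1 and SYVN1. In no comparison did the tumors of the groups fail to overlap for any member (0 of 35 in each). The same share over all genes was not counted, so this describes the members only.

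Side by side, and with the same Control tumors in both, the 12 ATF4 response genes had medians of -0.16 in Oxy186 and -0.20 in Oxy210 against Control, with 10 below 0 in each. The 13 ER folding genes had medians of -0.024 and -0.038, and the 4 ERAD genes -0.22 and -0.25. By arm, the median was -0.15 and -0.16 in the PERK-ATF4 arm and -0.056 and -0.062 in the ATF6-IRE1 arm.

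Of the other genes of the pathway on the lists used here, 134 were tested. In Oxy210 against Control 28 were lower and 2 higher at an unadjusted p under 0.05 (22.4%, beside 14% of all genes, which were 8.56% lower and 5.48% higher), none was called, and 89 were below 0. The counts by list that follow are read against the same shares. The genes with the lowest p were CREB3 (-0.63, SE 0.15, edgeR adjusted p 0.197), an ER-anchored transcription factor, KDELR2 (-0.42, SE 0.11, edgeR adjusted p 0.204), a receptor that returns chaperones to the ER, and P4HB (-0.55, SE 0.16, edgeR adjusted p 0.237), protein disulfide isomerase. Of 26 genes of ER translocation and N-glycosylation, which bring proteins into the ER and attach sugars, 20 were below 0 and 9 were lower at that p; with GC offsets 25 were below 0 and 12 were lower. Of 12 tRNA synthetases of the ATF4 response, 0 were lower and 1 higher. Of 26 other ATF4 targets and regulators 5 were lower, of 24 other folding enzymes 5, of 22 other ERAD genes 4, of 11 other regulators of the unfolded protein response 4, and of 13 eIF2 kinases and factors 1 was lower and 1 higher. With GC offsets the lower genes in these 5 lists numbered 2, 5, 6, 1 and 0, and the higher ones 0, 1, 1, 1 and 1. The tRNA synthetases then had 2 lower and 1 higher. Of all genes, 7.56% were then lower and 6.83% higher.

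In Oxy186 against Control 7 of the 134 were lower and 0 higher (5.22%, close to the 3.88% of all genes), led by GDF15 (-1.16, SE 0.36, edgeR adjusted p 0.836), a secreted stress cytokine, and WFS1 (-0.58, SE 0.20, edgeR adjusted p 0.836; -0.24 with GC offsets), an ER membrane protein. In Oxy186 against Oxy210, 10 were higher and 0 lower (7.46%, beside 4.06% of all genes), led by PPIB (0.51, SE 0.13, edgeR adjusted p 0.853), the ER cyclophilin, RNF5 (0.36, SE 0.12), an ERAD ligase, and DAD1 (0.47, SE 0.17), a subunit of the oligosaccharyltransferase. A list of 12 hypoxia and glycolysis genes, since low oxygen and glucose also engage PERK, summed to 2886 to 5009 CPM in Control, 3059 to 4037 in Oxy186 and 2691 to 4261 in Oxy210, so the sums overlapped. They came mostly from LDHA and PGK1 (Control medians 1700 and 710 CPM) and say little of the other genes. Medians in Control, Oxy186 and Oxy210 were 28.8, 11.1 and 14.6 for CA9 and 288, 177 and 199 for SLC2A1. They were 82.7, 83.3 and 103 for VEGFA and 85.9, 84.5 and 103 for P4HA1. The ranges of these 4 genes overlapped between groups. The part of this list in the member values was not tested.

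Members were last compared with each other over the 21 tumors, in 14 pairs that join genes of the same or of different roles. SLC7A5 and SLC3A2, the chains of the same transporter, went together most closely (Pearson r = 0.87, Spearman rho = 0.83, adjusted permutation p 0.00014 and 0.00056). The coefficient was 0.66 in Control, 0.93 in Oxy186 and 0.87 in Oxy210, and 0.60 after removal of the GC trend (adjusted permutation p 0.0107). PSAT1 and PHGDH, consecutive enzymes of serine synthesis, had r = 0.76 and rho = 0.78 (adjusted permutation p 7e-04 for both), and 0.88 after removal of the GC trend. Within Control, Oxy186 and Oxy210 this pair had 0.82, 0.76 and 0.61, and without the 2 tumors farthest from the median the pairs had r = 0.85 and 0.76.

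ASNS and PSAT1 went in opposite directions (r = -0.76, rho = -0.72, adjusted permutation p 0.00063 and 0.00159), with -0.58, -0.87 and -0.77 in Control, Oxy186 and Oxy210 and -0.71 without the 2 farthest tumors. The overlap of ASNS with AC079781.5, described above, applies to this value too, and AC079781.5 itself had r = -0.53 with PSAT1. HSPA5 went with HERPUD1 (r = 0.62, rho = 0.59, adjusted permutation p 0.0103 and 0.021; r = 0.53 without the 2 farthest tumors) and with HSP90B1 (r = 0.51, rho = 0.52, adjusted permutation p 0.0474 and 0.0371; r = 0.43 without the 2 farthest tumors). After removal of the GC trend these were 0.66 and 0.65, and within groups they ranged from 0.33 to 0.89 and from 0.49 to 0.79. No relation passed the test between HSPA5 and XBP1 (r = -0.10, rho = -0.14, adjusted permutation p 0.718 and 0.601) or between HSPA5 and SDF2L1 (r = -0.064, rho = -0.14, adjusted permutation p 0.78 and 0.601), although all 3 genes are known targets of the same arm.

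TRIB3 and CHAC1, both ATF4 targets of high GC content, had r = 0.50 and rho = 0.56 (adjusted permutation p 0.0474 and 0.0229; r = 0.45 without the 2 farthest tumors), but r was -0.22 after removal of the GC trend. HSPA5 and TRIB3, from different arms, had r = 0.43 and rho = 0.56 (adjusted permutation p 0.088 and 0.0229), and r = 0.61 after removal of the GC trend (adjusted permutation p 0.0104). DDIT3 and TRIB3 had a pooled r of 0.26 and rho of 0.10 (adjusted permutation p 0.337 and 0.663), from 0.75 in Control and 0.68 in Oxy210 against -0.84 in Oxy186. After removal of the GC trend the pooled r was 0.47 (adjusted permutation p 0.0561). The coefficients within groups were not computed after removal, so the negative value in Oxy186 is not separated from the GC slopes of its tumors. The pairs not yet given, HSPA5 with DNAJB9, ASNS and DDIT3 and TRIB3 with ASNS, had r from -0.42 to 0.47, none with an adjusted permutation p of r under 0.05, while rho was 0.48 for HSPA5 with DNAJB9 and -0.48 for TRIB3 with ASNS (adjusted permutation p 0.0491 for both).

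**Figure D5:**
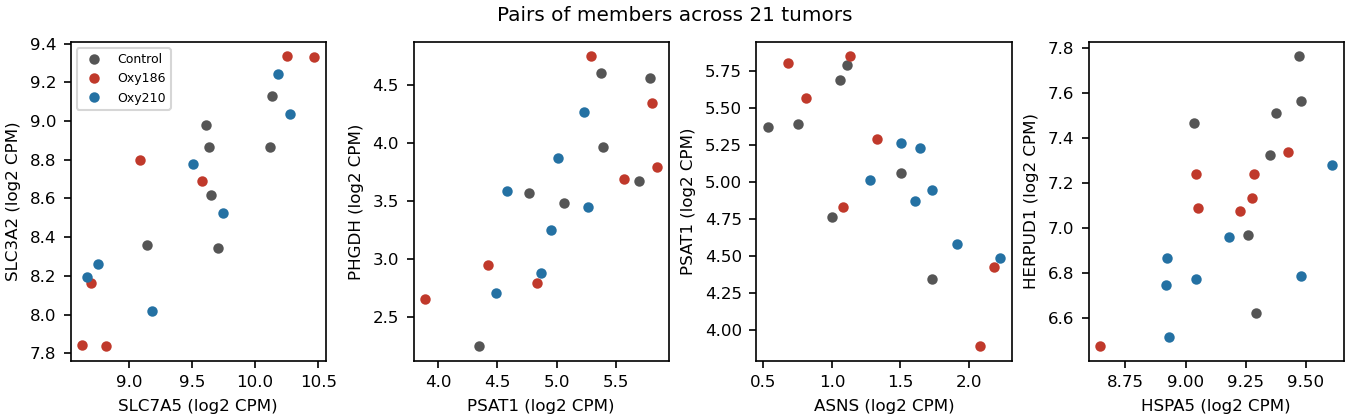
Levels (log2 CPM) of 4 pairs of members in the 21 tumors, colored by group. SLC7A5 with SLC3A2 and PSAT1 with PHGDH go up together, ASNS with PSAT1 goes down, and HSPA5 with HERPUD1 goes up with more scatter.

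Over all 595 pairs of members the median r was 0.13, against -0.0025 over all pairs of genes. It was 0.25 within the ER folding genes, 0.25 within the ATF4 response genes and 0.091 between the arms. After removal of the GC trend the ER folding genes stood at 0.36 and the ATF4 response genes at 0.055. The points of each such coefficient share library, depth and GC slope, and the medians are given as a description.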

How the data were processed

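RNA of 21 A549-Luc2 xenografts, 7 per group and all with an RNA integrity number above 8, was sequenced after library preparation with the NEBNext Ultra II RNA kit. The authors trimmed reads with Trimmomatic 0.39, aligned them with STAR 2.7.6a to a combined human (GRCh38.p13) and mouse (GRCm39) genome, kept human alignments and deposited raw counts of uniquely mapped reads per human gene made with featureCounts (Subread 2.0.1); versions are from the submitters' processing notes. The strand setting is not given in the sources used here. A deposited table of normalized values for Control and Oxy186 r1 to r4 was not used.

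The counts were filtered with filterByExpr, normalized by TMM and tested over all genes with edgeR 4.0.16 in R 4.3.3 (quasi-likelihood test), each pair of groups on its own, with Benjamini-Hochberg adjustment over all genes tested and calls at an adjusted p at or under 0.05. Levels are CPM or log2 CPM with a prior count of 2. Exon GC content and gene overlaps came from GENCODE 44, and the GC trend of each library was a spline with 4 degrees of freedom. Correlations used 100000 two-sided permutations, adjusted over 14 pairs. Promoters came from the RefSeq table. Alternatives were DESeq2 1.42.0, limma 3.58.1 (voom), other normalizations and filters, all 21 tumors in one fit, GC offsets, a replicate block and Oxy186 r1 to r4 alone; leaving out each tumor in turn was added after the data were seen. The code was tested on simulated data.

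The members and all lists were chosen with earlier results of these data known. In each comparison the members named are those with an unadjusted p under 0.05, the 3 highest and 3 lowest log2 fold changes, and ATF4, XBP1, DDIT3, HSPA5, ASNS and TRIB3; by spread the 5 most and 5 least variable; and of the other pathway genes the 3 with the lowest p, of which 1 is not reported here. Names beyond this rule were chosen after their values were seen.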

Additional observations from a re-analysis of the deposited data

Results flagged for a closer look

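Of 105 sets of 7 tumors examined (35 members in 3 groups), 2 held a tumor far from the other 6, where chance alone would give about 5.25 (1 in 20 such sets). DDIT3 was at 2.76 log2 CPM in Control r6, with the other Control tumors between 3.63 and 4.04. HERPUD1 was at 6.47 log2 CPM in Oxy186 r5, with the other Oxy186 tumors between 7.08 and 7.34.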

How the results depend on the processing

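In Oxy210 against Control, TRIB3 was the only member called under any alternative, by DESeq2 (1 member called; 92 of all genes) and without the filter on low counts (1 member called; 11 of all genes). Leaving out each of the 14 tumors in turn, which was chosen after seeing the data, called 0 members and 0 of all genes. These fits gave 7 to 13 members at an unadjusted p under 0.05, beside 8.63% to 19.2% of all genes. TRIB3 stayed between -0.95 and -0.77 on the log2 scale. In Oxy186 against Control, GC offsets gave 5 members at an unadjusted p under 0.05 (5.91% of all genes) and the replicate block 1 (2.46%). The same count was 10 with r1 to r4 alone (34.7% of all genes) and 11 with r1 to r4 and GC offsets (18.7%). Called members numbered 7 with r1 to r4 alone (3323 of 16852 genes) and 1 with r1 to r4 and GC offsets (683). Leaving out each tumor of the r1 to r4 comparison gave 0 to 9 called members, where 1836 to 3957 of all genes were called. The number was 0 without Oxy186 r3 (1875 of 17199 genes) or r4 (1836 of 17157) and 9 without Control r7 (3957 of 16754). In Oxy186 against Oxy210, members at an unadjusted p under 0.05 numbered 1 with library size alone (3.52% of all genes). There was 1 with all 21 tumors in 1 fit (5.09%). There were 6 with GC offsets (8.12%) and 4 with the replicate block and GC offsets (9.14%). With r1 to r4 there were 6 (27.9%), and 8 with r1 to r4 and GC offsets (21.9%). Called members numbered 1 (MANF) with r1 to r4 (1881 of 16908 genes) and 6 with r1 to r4 and GC offsets (1029).

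Log2 fold changes that turned sign against Control in Oxy186 were DDIT3 without the filter (-0.0119), XBP1 with r1 to r4 (0.033), and ATF4 with GC offsets (0.26), with the block and GC offsets (0.21) and with r1 to r4 and GC offsets (0.49). In Oxy186 against Oxy210 with r1 to r4, SDF2L1 (-0.12) and HSPA5 (0.081) did so. Of the other values of named members, 361 kept direction and side of the threshold and 11 kept direction and passed it. The correlation of TRIB3 and CHAC1 missed the threshold with a prior count of 0.5 (r = 0.50, 0.495 before rounding), with library size alone (0.46) and without r1 to r4 (0.47), and was -0.22 after removal of the GC trend; that of HSPA5 and DNAJB9 passed it with library size alone (0.51) and after removal (0.52), as did HSPA5 and TRIB3 after removal (0.61). The cause was not tested. Deviations of same-numbered tumors correlated above 0.1 in 0 of 7 pairs (Oxy186 and Control), 3 of 7 (Oxy210 and Control, highest r 0.329) and 1 of 7 (Oxy186 and Oxy210). Differently numbered tumors were not correlated for comparison, so this cannot decide whether replicate numbers pair the samples. No member was called under the block, nor in the main fits. For Oxy210 against Control the block called 2 of 16396 genes, with 15.1% at an edgeR unadjusted p under 0.05, against 0 and 14% without it. Counts of 18 to 73 limit ASNS, and the lowest member count was 6.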
